A study of Mus musculus with 12 samples.

Results

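Complex III, cytochrome c, complex IV and ATP synthase carry electrons from coenzyme Q to oxygen and make ATP in the inner mitochondrial membrane. Their nuclear-encoded genes were compared between hearts of WT and Sdhaf4 KO mice. The genes were chosen by name: every Uqcr gene and Cyc1 for complex III, Cycs for cytochrome c, Cox5a, Cox5b, Cox6b1, Cox6c, Cox7b and Cox7c for complex IV, and every gene whose name begins with Atp5 for ATP synthase. This gave 33 of the 43686 rows of the gene table, with 9 for complex III, 1 for cytochrome c, 6 for complex IV and 17 for ATP synthase. All 33 passed the filter on low counts, and each was a single row. The names do not follow function throughout: Atp5s and Atp5sl are older names of Dmac2l and Dmac2, which are not stable subunits of ATP synthase, so counts are also given without them.

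RNA of the ventricular wall was sequenced in 6 WT and 6 KO samples of the C57BL/6 strain, which the labels place at 2 months after birth. The study's text gives the hearts of its transcriptome comparison a somewhat younger age, and the label is kept here. In both groups Sdhaf4 was flanked by loxP sites (Sdhaf4 fl/fl), WT being littermates with no Cre. KO mice, labelled Sdhaf4-/-, also carried Ckmm-Cre, driven by the muscle creatine kinase promoter, which acts in heart and skeletal muscle. Cre alone was not among the groups, and other cells of the ventricular wall keep the gene. Sdhaf4 encodes an assembly factor of complex II, the entry point of succinate electrons, which pass through coenzyme Q to complex III.

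Libraries held 23747014 to 27159228 counts in WT and 26542930 to 31393393 in KO. Sdhaf4 ran from 14.3 to 30.3 CPM, the counts scaled to a common library size, in WT and from 2.25 to 2.73 in KO, and the groups did not overlap (log2 fold change -3.39, SE 0.16, edgeR adjusted p = 1.947e-10). KO replicate 3 stood apart for the 33 genes: it was the KO library nearest to the WT mean in 27 of them. Cell type markers were called at an edgeR adjusted p under 0.05. By that threshold 25.5% of all rows tested were lower in KO and 25.6% were higher. Of the 10 cardiomyocyte markers, 5 were lower and 1 was higher in KO, with a summed level of 54649 to 60191 CPM in WT and 46908 to 64212 in KO, the highest being KO replicate 3. All 8 fibroblast markers were higher, with a sum of 1420 to 1670 CPM in WT and 2584 to 4867 in KO. Of the 8 endothelial markers, 2 were lower and 4 higher. Of the 6 smooth muscle and pericyte markers 1 was lower and 2 higher, and of the 6 macrophage markers tested 2 were lower and 1 higher. All 5 lymphocyte and all 4 adipocyte markers, 4 of the 5 skeletal muscle markers and 2 of the 3 atrial markers (Myl7 and Sln) were under 1 CPM on average. The other atrial marker, Myl4, was low but higher in KO (mean 2.1 CPM in WT and 3.5 in KO, log2 fold change 0.72, edgeR adjusted p = 0.00515).

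In the respiratory chain, complex III passes electrons from reduced coenzyme Q to cytochrome c, complex IV passes them from cytochrome c to oxygen, and both pump protons out of the matrix. ATP synthase lets protons return through a ring of c subunits, whose rotation drives ATP synthesis in its catalytic head. Each of the 3 complexes joins nuclear-encoded subunits to a smaller part that mitochondrial DNA encodes. The heart is dense in mitochondria, and the nuclear genes are known targets of the transcription factors NRF1, GABPA (an ETS factor), the ERR family and YY1. The promoters below, from RefSeq on GRCm38.p6, run from 120 bases before to 30 bases after the annotated start. The first 4 belong to the gene with the most negative log2 fold change in each group among those with a motif inside this window, and the last 3 to the isoform genes of subunit c, whose relative levels are compared further on. In complex IV only Cox6b1 had a motif, and its log2 fold change of -0.23 was the nearest to 0 of the 6 genes. Cox6c, the most negative of the 6, had no promoter in the reference set. Cycs, the only cytochrome c gene, had an edgeR adjusted p of 0.108. Capitals mark matches on either strand to NRF1 (CGCATGCG), GABPA/ETS (CCGGAAG), ERR (TCAAGGTCA) or YY1 (AAGATGGCG).
Uqcr11, chr10:80406792-80406941, minus strand: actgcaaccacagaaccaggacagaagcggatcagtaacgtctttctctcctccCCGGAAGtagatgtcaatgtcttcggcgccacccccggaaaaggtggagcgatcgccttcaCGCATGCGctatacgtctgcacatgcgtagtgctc
Cycs, chr6:50566540-50566689, minus strand: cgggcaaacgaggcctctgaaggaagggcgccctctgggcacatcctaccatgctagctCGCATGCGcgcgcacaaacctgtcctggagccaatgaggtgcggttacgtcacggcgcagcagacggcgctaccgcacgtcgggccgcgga
Cox6b1, chr7:30626085-30626234, minus strand: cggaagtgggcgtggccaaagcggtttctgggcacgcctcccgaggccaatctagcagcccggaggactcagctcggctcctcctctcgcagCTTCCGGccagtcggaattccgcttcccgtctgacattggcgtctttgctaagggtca
Atp5e, chr2:174464072-174464221, minus strand: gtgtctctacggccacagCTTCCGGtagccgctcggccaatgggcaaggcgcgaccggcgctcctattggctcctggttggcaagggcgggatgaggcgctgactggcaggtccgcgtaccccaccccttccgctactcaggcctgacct
Atp5g1, chr11:96075602-96075751, minus strand: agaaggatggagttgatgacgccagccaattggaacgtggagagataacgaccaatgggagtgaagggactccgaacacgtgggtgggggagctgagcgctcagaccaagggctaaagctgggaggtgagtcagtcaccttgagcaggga
Atp5g2, chr15:102671018-102671167, minus strand: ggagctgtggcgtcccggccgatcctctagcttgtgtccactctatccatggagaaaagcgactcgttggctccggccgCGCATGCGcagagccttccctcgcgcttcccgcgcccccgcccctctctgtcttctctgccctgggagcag
Atp5g3, chr2:73911297-73911446, minus strand: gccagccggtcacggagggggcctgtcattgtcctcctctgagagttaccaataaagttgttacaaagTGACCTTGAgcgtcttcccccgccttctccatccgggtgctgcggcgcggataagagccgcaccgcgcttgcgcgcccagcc

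All 33 genes were matched to a RefSeq name, 3 of them through an older symbol, and 27 had a promoter in the reference set, which spans 250 bases before to 50 after the start. The NRF1 letters, which read the same on both strands, were found for 7 of these 27 genes: Atp5g2, Atp5j, Atp5k, Atp5l, Cycs, Uqcr11 and Uqcrc1. They were found for 2.07% of all genes with a promoter and in 1.87% of all promoters. The GABPA/ETS letters were found for 8 of the 27, against 9.93% of all genes and 8.86% of promoters. YY1 letters were found for 3 of the 27 (1.64% of genes, 1.4% of promoters). The ERR letters were found only for Atp5g3 among the 27 (0.466% of genes, 0.423% of promoters). The comparison set was not matched on base composition, and a match is a run of letters and not a measured binding site. At least 1 of the 4 motifs was found for 14 of the 27 genes, against 13.2% of all genes and 11.8% of promoters. Of the 24 genes with a promoter that were lower in KO, 12 held at least 1 of them, as did Cycs and Atp5sl, which were not lower. Atp5d, the remaining gene that was not lower, held none. A link between motif and fall was not tested.

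Of the 33 genes, 30 were lower in KO at an edgeR adjusted p under 0.05, 1 was higher (Atp5sl) and 2 did not pass (Atp5d and Cycs). Among all 17155 rows tested, 25.5% were lower and 25.6% were higher. These rows include many of low level. Under a stricter low-count filter, 2936 of 9409 rows were lower and 2991 higher, and the 33 genes again gave 30 lower and 1 higher. Without Atp5s and Atp5sl, 29 of 31 were lower. The median log2 fold change over the 33 genes was -0.39, against 0.002 over all rows tested. The falls that passed ran from 11.9% (Atp5g3) to 43.3% (Atp5s). None of the 33 passed the study's stricter threshold of an adjusted p under 0.005 with a log2 fold change beyond 1 in either direction, which 10.2% of all rows did. In 24 of the 33, every KO library lay below every WT library, which held for 15.2% of all rows tested. Together the genes took 3.32% to 3.52% of all counts in WT and 2.55% to 2.90% in KO.

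Relative to each gene's WT mean, the median over the 33 genes lay between 91.4% (WT replicate 6) and 106% (WT replicate 5) in the WT libraries. In KO it lay between 71.0% (replicate 4) and 85.4% (replicate 3). In KO replicates 1, 2, 4, 5 and 6, 31 of the 33 genes were under their WT mean, and in KO replicate 3, 29 were. Without KO replicate 3, 31 of the 33 were lower, Cycs being the gene gained, and the median log2 fold change was -0.42. Over all rows tested without that library, 26.6% were lower and 25.4% were higher. In these bulk samples, fewer cardiomyocytes and less of these RNAs per cardiomyocyte cannot be told apart. With libraries scaled on the 10 cardiomyocyte markers, 18 of the 33 were lower and 2 were higher (Atp5sl and Atp5d), while 13.0% of all rows tested were lower and 36.3% higher. Before this scaling, 5 of the markers were lower, 1 was higher and 4 did not pass. Their log2 fold changes ran from -0.89 (Tnni3) to 1.05 (Mybpc3), so they are an uneven measure of cardiomyocyte content. Under that scaling the median over all rows moved from 0.002 to 0.20 and that of the 33 genes to -0.205. A scaling of libraries shifts all genes by about the same amount. The distance between the medians, -0.40 under both scalings, was therefore fixed by the method and is not a test of cell composition. The part of cell composition in the result was not tested further.

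**Figure D1:**
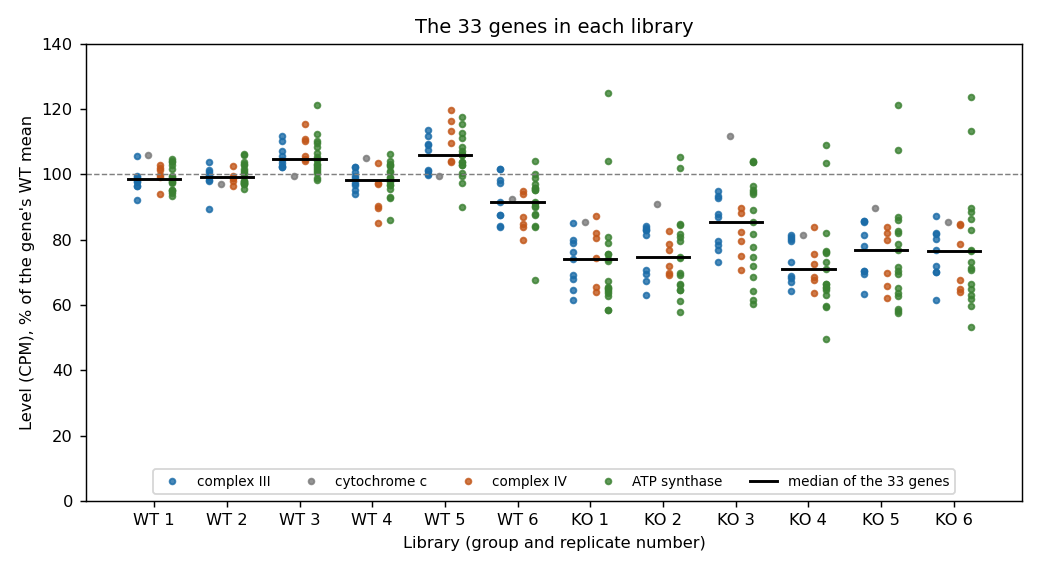
Level of each of the 33 genes in each of the 12 libraries, in CPM as a percentage of the gene's WT mean; points are genes coloured by complex and the black bar is the median of the 33 genes. The bars lie between 91.4% and 106% in WT and between 71.0% and 85.4% in KO, with KO replicate 3 the highest of the KO libraries.

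**Figure D2:**
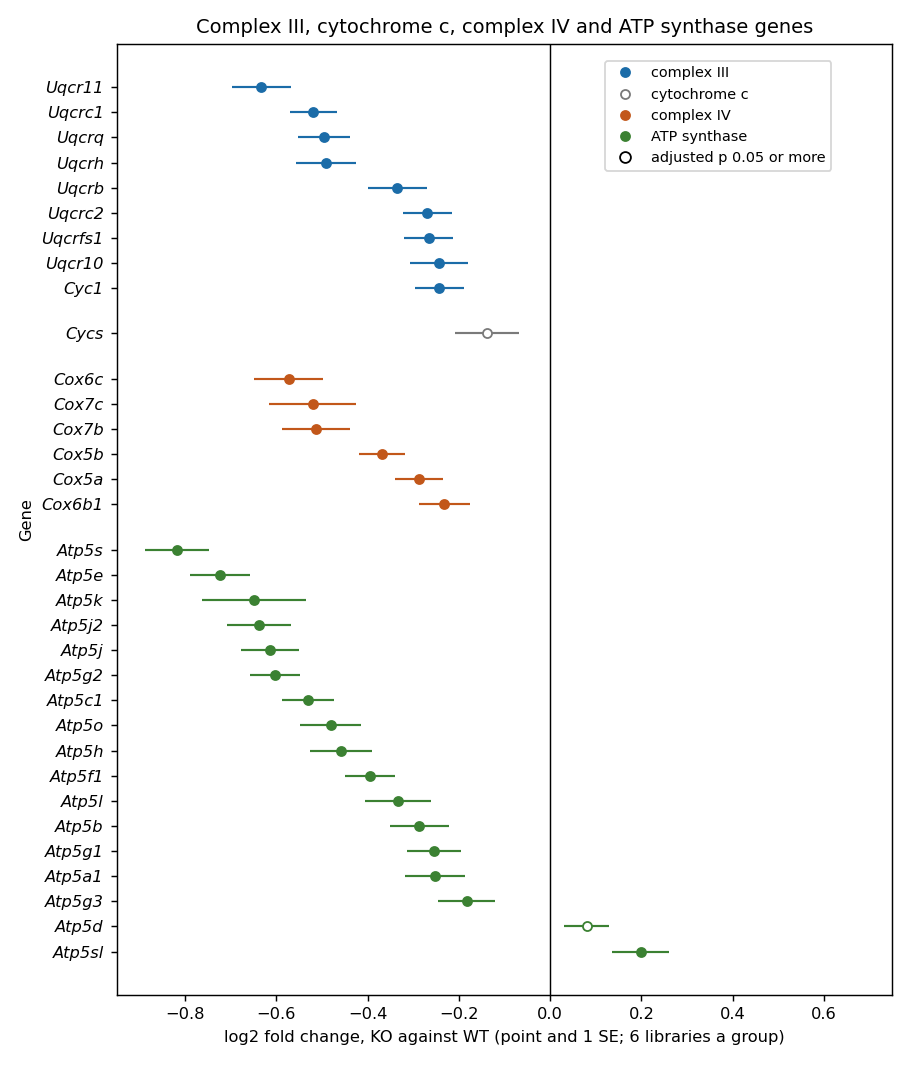
Log2 fold change of KO against WT for the 33 genes, grouped by complex, with bars of 1 SE from the edgeR fit over 6 libraries a group. Points lie left of 0 except Atp5d and Atp5sl, and open points (Cycs and Atp5d) had an adjusted p of 0.05 or more.

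All 9 complex III genes were lower in KO, with a median log2 fold change of -0.33 and with groups that did not overlap in 7 of 9. Under the cardiomyocyte marker scaling 4 of the 9 were lower, and Uqcrb, Uqcrc2, Uqcrfs1, Uqcr10 and Cyc1 no longer passed. The summed level of the 9 was 7019 ± 277 CPM in WT (SD, n = 6) and 5374 ± 315 CPM in KO (SD, n = 6). Uqcr11, a small accessory subunit, ran from 555 to 698 CPM in WT (median 624) and from 389 to 463 in KO (median 400). The highest KO library, replicate 3, was still below the lowest WT library, and the log2 fold change was -0.63 (SE 0.06, edgeR adjusted p = 4.091e-07). Uqcrc1, a core protein of the matrix arm, ran from 1177 to 1248 CPM in WT (median 1224) and from 787 to 935 in KO (median 851). Its groups were apart, with a log2 fold change of -0.52 (SE 0.05, edgeR adjusted p = 3.061e-07). The partner core protein gene Uqcrc2 had a log2 fold change of -0.27.

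Uqcrq, a small subunit next to cytochrome b, ran from 754 to 899 CPM in WT (median 818) and from 555 to 657 in KO (median 572), again with no overlap (log2 fold change -0.50, SE 0.06, edgeR adjusted p = 1.811e-06). Uqcrb, another small subunit that binds cytochrome b, ran from 318 to 391 CPM in WT (median 378) and from 266 to 316 in KO (median 290), with the highest KO library just under the lowest WT library (log2 fold change -0.33, SE 0.06, edgeR adjusted p = 0.000341). Uqcrh, the hinge protein that aids the docking of cytochrome c, had a log2 fold change of -0.49, and Uqcrfs1, the Rieske iron-sulfur protein, had -0.27. Cyc1, the cytochrome c1 subunit that hands electrons to cytochrome c, was the complex III gene nearest to 0. It ran from 776 to 861 CPM in WT (median 853) and from 671 to 799 in KO (median 695). The groups overlapped, because WT replicate 1 lay under KO replicate 3, and the log2 fold change was -0.24 (SE 0.05, edgeR adjusted p = 0.00119). Uqcr10, a small accessory subunit, also overlapped between groups, with a log2 fold change of -0.24.

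Cycs encodes cytochrome c, the soluble carrier between complexes III and IV. It ran from 555 to 636 CPM in WT (median 597) and from 487 to 670 in KO (median 525). KO replicate 3 was above every WT library, and the other KO libraries lay at 545 or below. The log2 fold change was -0.14 (SE 0.07, edgeR adjusted p = 0.108). Without KO replicate 3 it was -0.21, with an edgeR adjusted p of 0.001909. The coding sequence of Cycs has 4 near-identical copies elsewhere in the genome, so its count is uncertain.

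All 6 complex IV genes were lower in KO, with a median log2 fold change of -0.44 and with groups that did not overlap in 4 of 6. Their summed level was 4424 ± 388 CPM in WT (SD, n = 6) and 3314 ± 145 CPM in KO (SD, n = 6). Under the cardiomyocyte marker scaling 4 of the 6 were lower, and Cox5a and Cox6b1 no longer passed. All 6 encode subunits that surround the mitochondrially encoded catalytic core. Cox6c ran from 984 to 1364 CPM in WT (median 1168) and from 747 to 877 in KO (median 769). The groups did not overlap, and the log2 fold change was -0.57 (SE 0.08, edgeR adjusted p = 7.882e-06). Cox7c ran from 272 to 407 CPM in WT (median 339) and from 212 to 279 in KO (median 236). Here 1 KO library, replicate 1, lay above the lowest WT library, and the log2 fold change was -0.52 (SE 0.10, edgeR adjusted p = 0.000298).

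Cox7b ran from 674 to 901 CPM in WT (median 800) and from 510 to 635 in KO (median 547), with no overlap (log2 fold change -0.51, SE 0.07, edgeR adjusted p = 2.2e-05). Cox6b1, which lies on the side facing cytochrome c, was the complex IV gene nearest to 0. It ran from 703 to 885 CPM in WT (median 815) and from 668 to 713 in KO (median 681), with a slight overlap and a log2 fold change of -0.23 (SE 0.06, edgeR adjusted p = 0.00227). Cox5b and Cox5a had log2 fold changes of -0.37 and -0.29, and their groups did not overlap.

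Of the 17 genes with an Atp5 name, 15 were lower in KO, with a median log2 fold change of -0.46 and groups that did not overlap in 13. Without Atp5s and Atp5sl, 14 of 15 were lower. Under the cardiomyocyte marker scaling 10 of the 17 were lower, and Atp5b, Atp5a1, Atp5g1, Atp5g3 and Atp5l no longer passed. The summed level of the 17 was 22099 ± 715 CPM in WT (SD, n = 6) and 17552 ± 1352 CPM in KO (SD, n = 6). In the catalytic head, Atp5b encodes the beta subunit, which holds the catalytic sites, and was the most abundant of the 33 genes on the scale of CPM per kilobase. It ran from 6244 to 6770 CPM in WT (median 6617) and from 4866 to 6201 in KO (median 5380). KO replicate 3 came close to the lowest WT library without reaching it, and the log2 fold change was -0.29 (SE 0.06, edgeR adjusted p = 0.00137). Atp5a1, for the alpha subunit that alternates with beta, had a log2 fold change of -0.25.

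The central stalk, which turns inside the head, is made of the gamma, delta and epsilon subunits. Atp5e, for epsilon, ran from 453 to 609 CPM in WT (median 529) and from 313 to 340 in KO (median 328). The groups were far apart, and its log2 fold change was -0.72 (SE 0.07, edgeR adjusted p = 1.262e-07). Atp5c1, for gamma, had a log2 fold change of -0.53. Atp5d, for delta, did not pass: it ran from 462 to 528 CPM in WT (median 500) and from 504 to 562 in KO (median 514). The groups overlapped, and the log2 fold change was 0.08 (SE 0.05, edgeR adjusted p = 0.186). Atp5d was the ATP synthase gene nearest to 0.

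The peripheral stalk holds the head still against the turning ring. Atp5f1, also named Atp5pb, encodes its subunit b, and ran from 1109 to 1303 CPM in WT (median 1224) and from 871 to 1004 in KO (median 933). Its groups did not overlap, with a log2 fold change of -0.39 (SE 0.05, edgeR adjusted p = 1.222e-05). Atp5j, Atp5o and Atp5h, for the other subunits of this stalk, fell by 0.61, 0.48 and 0.46 on the log2 scale. Gabpa lies across part of Atp5j on the opposite strand, and 6 other rows overlap Atp5o. Among the small membrane subunits, Atp5k, for subunit e, ran from 237 to 425 CPM in WT (median 363) and from 203 to 236 in KO (median 226). WT replicate 6 was the lowest WT library and lay just above the KO range, and the log2 fold change was -0.65 (SE 0.11, edgeR adjusted p = 0.000253). Atp5j2 (subunit f) and Atp5l (subunit g) had log2 fold changes of -0.64 and -0.33.

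Both genes that carry an Atp5 name without encoding a stable subunit passed, in opposite directions. Atp5s, also known as coupling factor B or Dmac2l, was low in level, from 24.5 to 29.98 CPM in WT (median 28.2) and from 13.9 to 17.1 in KO (median 16.2). The groups did not overlap, and its log2 fold change of -0.82 was the most negative of the 33 (SE 0.07, edgeR adjusted p = 5.599e-08). Atp5sl (Dmac2), which takes part in the assembly of complex I, ran from 35.1 to 41.4 CPM in WT (median 39.7) and from 40.6 to 48.8 in KO (median 45.0). The groups overlapped, and the log2 fold change was 0.20 (SE 0.06, edgeR adjusted p = 0.0135).

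Atp5g1, Atp5g2 and Atp5g3 encode the same mature c subunit behind different import sequences. Atp5g1 ran from 1321 to 1490 CPM in WT (median 1386) and from 1074 to 1316 in KO (median 1171), just without overlap (log2 fold change -0.25, SE 0.06, edgeR adjusted p = 0.00164). Atp5g2 ran from 266 to 324 CPM in WT (median 293) and from 188 to 212 in KO (median 191), well apart (log2 fold change -0.60, SE 0.05, edgeR adjusted p = 1.161e-07). Atp5g3 ran from 1495 to 1602 CPM in WT (median 1562) and from 1259 to 1624 in KO (median 1337), with KO replicate 3 above all WT libraries (log2 fold change -0.18, SE 0.06, edgeR adjusted p = 0.0216). The fall of Atp5g3 no longer passed without KO replicate 1 (adjusted p = 0.05313) or without KO replicate 2 (adjusted p = 0.05038) in the same edgeR test. It did not pass either with the length trend removed (log2 fold change -0.12, edgeR adjusted p = 0.1059) or under the cardiomyocyte marker scaling, where the log2 fold change was -0.0003 (edgeR adjusted p = 0.9977).

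The share of each isoform gene in their summed level, in counts per kilobase of gene length, was compared within each library. Atp5g2 made up 14.4% to 16.5% in WT and 11.3% to 12.6% in KO, so every KO library was below every WT library. The means were 15.4% ± 0.868 and 12.1% ± 0.517 (SD, n = 6 each), a difference of -3.29 percentage points (two-sided exact permutation p = 0.002165, adjusted over the 3 genes 0.003247). Atp5g3 made up 70.1% to 72.3% in WT and 73.7% to 75.6% in KO. Its difference was 3.32 percentage points (two-sided exact permutation p = 0.002165, adjusted 0.003247), and 0.002165 is the smallest p that 6 against 6 libraries allow. Atp5g1 made up 13.6% ± 0.643 in WT and 13.6% ± 0.366 in KO (SD, n = 6 each), a difference of -0.034 percentage points (two-sided exact permutation p = 0.9286). The 3 shares sum to the whole, so they are not independent. The gene length given for Atp5g1, 4044 bases, is far above that of the other isoform genes (753 and 862 bases), and the levels of the shares rest on it. The coding sequence of Atp5g2 has 2 near-identical copies elsewhere in the genome and that of Atp5g1 has 1, so their counts are uncertain, while none was found for Atp5g3. The Atp5g2 promoter printed above held the NRF1 letters and that of Atp5g3 the ERR letters, while that of Atp5g1 held none of the 4 motifs.

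**Figure D3:**
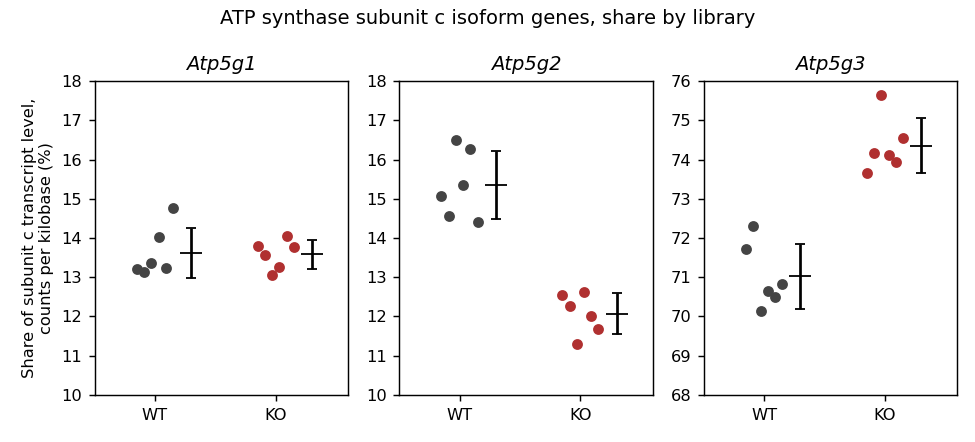
Share of each subunit c isoform gene in their summed counts per kilobase, in %, for the 6 WT and 6 KO libraries (points), with the mean and SD beside them; the y axes do not start at 0 and that of Atp5g3 has another range. Atp5g2 is lower and Atp5g3 higher in every KO library than in any WT library, and Atp5g1 overlaps.

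The other genes of oxidative phosphorylation were counted from the same fit, with the same background of 25.5% lower and 25.6% higher. Of 36 nuclear subunits of complex I, which takes electrons from NADH, 34 were lower and 1 was higher (median log2 fold change -0.44). The smallest p-values belonged to Ndufs6, Ndufa5 and Ndufb4, with log2 fold changes of -0.70, -0.84 and -0.71. Of the 4 subunits of complex II, Sdhb, Sdha and Sdhc were lower (log2 fold changes -0.43, -0.46 and -0.36), and Sdhd did not pass at -0.05. Of 11 further complex IV subunit genes, 7 were lower and 2 were higher (median -0.47). The smallest p-values belonged to Cox7a1 at -1.20, Ndufa4 at -0.61 and Cox6b2, of low level, at -2.60.

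Assembly genes had other counts. Of 6 complex III assembly factors, 4 were lower and 1 was higher, led by Lyrm7, a chaperone of the Rieske protein, at a log2 fold change of -0.88, Bcs1l at -0.55 and Ttc19 at -0.24. Of 20 complex IV assembly factors, 18 were tested, with 4 lower and 7 higher (median log2 fold change 0.07). Their smallest p-values were those of Cox19, a copper delivery factor, at 0.75, Lrpprc, which stabilises mitochondrial mRNAs, at -0.64 and Cox20 at -0.49. Of 5 genes for ATP synthase assembly and inhibition, Fmc1 and Tmem70 were lower (log2 fold changes -0.68 and -0.20) and Atpif1, the inhibitory factor, was higher (0.23). Of the 3 genes for ATP export and phosphate import, Slc25a5 was higher at 0.71, Slc25a3, the phosphate carrier, was lower at -0.19, and Slc25a4 had -0.13 without passing.

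Of 11 listed transcription regulators of oxidative phosphorylation, 10 had a row in the gene table. Of these 10, Gabpa was lower (log2 fold change -0.23, edgeR adjusted p = 0.0118), Gabpb1 was higher (0.20, edgeR adjusted p = 0.0158) and 8 did not pass. These 8 included Yy1 at -0.13, which had the next smallest p of the list. The ERR genes among the 10 were Esrrb and Esrrg, and Esrra was not among them. Cytosolic ribosomal protein genes were listed as a comparison for short and abundant transcripts, but not all genes of either kind are short. The gene length was 4014 bases for Rpl5 and 4044 bases for Atp5g1. Rpl19 was also low in level, with a mean of 1.65 CPM in WT. The ribosomal protein genes were not matched on length or level to the genes of complex III, complex IV and ATP synthase. Of 39 tested, 13 were lower and the other 26 did not pass (median log2 fold change -0.12), led by Rps9 at -0.32, Rplp2 at -0.35 and Rpl5 at -0.25.

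**Figure D4:**
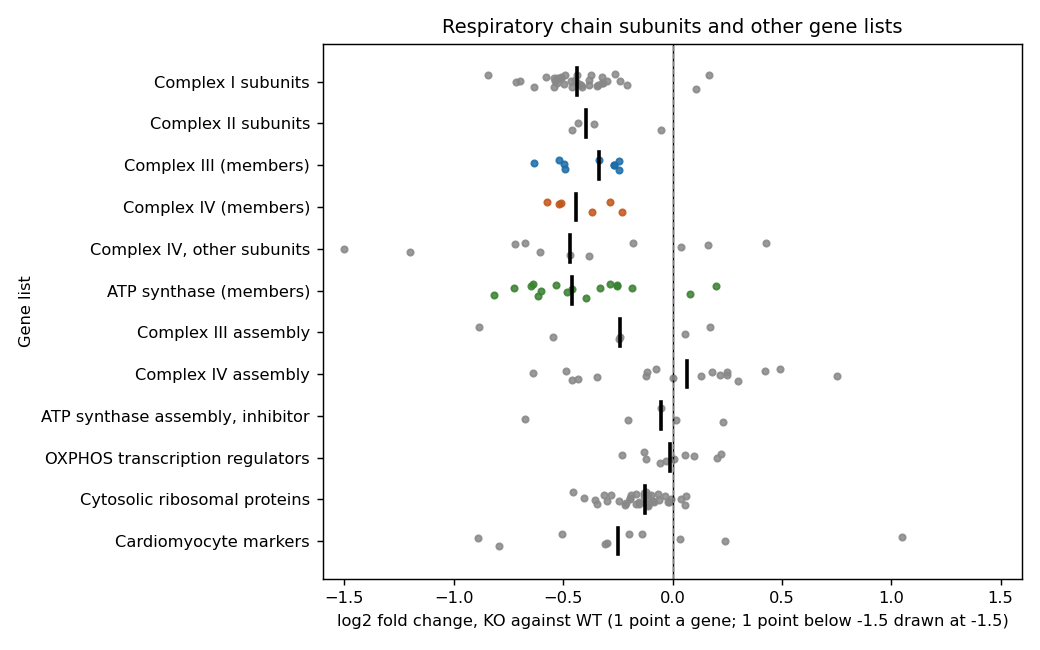
Log2 fold change of KO against WT for each gene of 12 lists; each point is a gene, black bars are list medians, and the dashed line is the median of all rows tested (0.002). The subunit lists of complexes I to IV and ATP synthase have medians between -0.47 and -0.33, while the regulators, the complex IV assembly factors and the ATP synthase assembly genes have medians between -0.05 and 0.07; those of the complex III assembly factors, the ribosomal proteins and the cardiomyocyte markers are -0.24, -0.12 and -0.25.

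Reads of 15 of the 33 genes could be shared with a near-identical copy elsewhere in the genome, mostly a pseudogene, up to 8 copies for Atp5l. Of these 15 genes, 14 were lower and 1 did not pass, and of the 18 without such a copy, 16 were lower, 1 was higher and 1 did not pass. The median log2 fold changes were -0.46 with such a copy and -0.29 without, a difference that was not tested. The spans of 12 genes overlap another row of the table, and 11 of these were lower. Of the 12 genes with neither a copy nor an overlap, 11 were lower and 1 was higher, with a median log2 fold change of -0.38.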

How the data were processed

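RNA from the ventricular wall in 6 WT and 6 KO samples was measured by poly-A selected RNA-seq with a TruSeq kit, and replicates were kept separate. The authors deposited whole-number read counts per gene and FPKM values made from them. The submitters' processing notes name HISAT2 2.0.5 and mm10, and the study's methods name HTSeq for counting, with no strand setting given. The gene identifiers and coordinates belong to the C57BL/6NJ assembly, so they were used only for overlaps between rows of the table, and the printed coordinates are those of the RefSeq promoters on GRCm38.p6. The authors' columns of fold changes, p-values, scaled group mean signal and log2 ratios were not used, and their FPKM served only as an alternative for the subunit c shares.

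The deposited counts were fitted over all rows with edgeR 4.0.16 (TMM factors, filterByExpr, robust quasi-likelihood test, genotype only, R 4.3.3), with Benjamini-Hochberg adjustment over 17155 rows, and CPM use the TMM library sizes. DESeq2 1.42.0, limma-voom (limma 3.58.1), other scalings and filters, and leaving out each library were alternatives. The labels do not say whether replicates are separate animals, so p-values measure the spread between these samples, which may be technical. Pairs of one group differed beyond counting noise (chi-square 7.41 to 52.6 per degree of freedom). Unannotated mitochondrial loci took 8.22% to 11.1% of counts. Near-identical copies were sought with blastn of GENCODE coding sequences (at least 95% identity over 80%) among GRCm38 transcripts. The fit was tested on simulated data of 16950 genes. It recovered 46 of 57 genes changed by -0.5 and 39 of 50 changed by 0.5 on the log2 scale, with 1 false call. Far fewer genes were changed there than were called in these data, so scaling under so many changes was not tested.

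The genes were set by name and the other lists by function, all with earlier results of these data known. Values by library are given for the 3 most negative genes and the one nearest to 0 in each complex, genes that rose or did not pass, cytochrome genes, subunit c genes and those with qPCR primers in the study (Atp5f1 under the name Atp5pb). From other lists the 3 genes with the smallest p-values are named.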

Additional observations from a re-analysis of the deposited data

Results flagged for a closer look

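In each group of 6 libraries, a library was marked where its gap to the nearest other library exceeded Dixon's critical share of the group's range (95% level). This held in 9 of 74 groups examined. About 3.7 would be marked by chance alone if the groups were independent. They are not, because the genes were measured in the same libraries. KO replicate 3 was the marked library for 7 genes, each time as the highest of the KO libraries. Its level was 212 CPM for Atp5g2 (others 188 to 192), 635 for Atp5h (466 to 530) and 509 for Atp5l (391 to 425). It was 463 CPM for Uqcr11 (389 to 406), 657 for Uqcrq (555 to 592), 537 for Uqcrh (473 to 484) and 670 for Cycs (487 to 545). All but that of Cycs were under the WT mean of the gene.

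WT replicate 1 was marked for Cyc1, at 776 CPM against 838 to 861 in the other WT libraries. KO replicate 1 was marked for Sdhaf4, at 2.73 CPM against 2.25 to 2.41 in the other KO libraries and a WT mean of 25.2.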

How the results depend on the processing

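Under scaling on the cardiomyocyte markers, 18 genes were lower and 2 higher, with 4 complex III, 4 complex IV and 10 ATP synthase genes among the lower (13.0% of all rows lower, 36.3% higher), and the median log2 fold change was -0.205. With a trend on gene length removed, 2 genes were higher, Atp5d being added (24.7% of all rows higher). The causes were not tested. Leaving out 1 library at a time gave 29 to 31 lower genes, 9 for complex III, 6 for complex IV, 14 to 15 for ATP synthase, 1 higher gene and a median of -0.424 to -0.374. Over all rows these fits called 4162 (of 17325) to 4602 (of 17331) lower, and 4087 (of 17395) to 4401 (of 17331) higher. Other settings kept each count within 1.5 times, and no gene changed sign while called. Over all single genes and settings, 15 values lost and 3 gained the call. With the replicate number as a block, 30 genes were lower, the median was -0.394 and the Atp5g2 share differed by -3.29 points (exact paired p = 0.03125). Over all 17155 rows, 4110 were lower and 4123 higher with this block. Same-numbered samples did not deviate together over all rows tested (r from -0.162 to 0.0243, own number closest in 1 of 6). A weak shared effect could go unseen in such a correlation. Reads shared with near-identical copies cannot be resolved from the counts at any depth.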

Other observations

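Several complex IV subunits have a striated-muscle isoform gene and a more widely expressed one; these pairs were picked after their values were seen. Cox7a1, the muscle isoform, ran from 796 to 1088 CPM in WT and from 379 to 434 in KO, with a log2 fold change of -1.20 (SE 0.07, edgeR adjusted p = 1.471e-09). Its counterpart Cox7a2 was lower as well, with a log2 fold change of -0.38. Cox6a2, the muscle isoform, ran from 942 to 1307 CPM in WT and from 635 to 826 in KO, and Cox6a1 from 82.3 to 94.2 in WT and from 101 to 127 in KO. The groups did not overlap for either gene, and the log2 fold changes were -0.68 (edgeR adjusted p = 2.814e-06) and 0.43 (edgeR adjusted p = 1.216e-05).

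Cox8b, the muscle isoform, ran from 521 to 818 CPM in WT and from 397 to 468 in KO (log2 fold change -0.72, edgeR adjusted p = 4.537e-06), and Cox8a from 89.3 to 105 in WT and from 101 to 118 in KO (log2 fold change 0.16, edgeR adjusted p = 0.0197). Of the ADP/ATP carriers, Slc25a4, the heart isoform, ran from 5114 to 5869 CPM in WT and from 4349 to 5714 in KO without passing (log2 fold change -0.13, edgeR adjusted p = 0.149). Slc25a5 ran from 179 to 217 CPM in WT and from 268 to 371 in KO, with no overlap (log2 fold change 0.71, edgeR adjusted p = 5.516e-07). The difference between the isoforms of a pair was not tested. All 8 fibroblast markers were higher in KO, and their part in these values was not tested.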
